A study of Mus musculus with 15 samples.

Results

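The genes described here are 36 members of the Notch signalling pathway, measured in primary mouse ovarian granulosa cells after knockdown of Foxl2 or Esr2. They were taken by gene symbol from the 24490 genes of the count files, from a list chosen for the pathway, and all 36 symbols were found. FOXL2, a forkhead transcription factor, maintains the granulosa cell fate of the adult ovary. ESR2 is oestrogen receptor beta, a hormone-activated transcription factor abundant in the same cells. The study asked which genes depend on each factor. The cells came from 8-week-old RjOrl:SWISS females, and every culture received 30 pmol of siRNA with Lipofectamine RNAiMax. There were 5 groups of 3 libraries: scrambled siRNA at 30 h, scrambled siRNA at 54 h, Foxl2 siRNA at 30 h, Foxl2 siRNA at 54 h and Esr2 siRNA at 30 h. Both targets were hit by pools of 3 siRNAs, but the labels print the same catalogue numbers for the Foxl2 and the Esr2 pools and do not tie a pool to a library. The extraction protocol in the labels mentions 30 h alone, so the 54 h groups rest on the sample titles. Nothing in the labels says that the 3 libraries of a group were separate cultures or animals, so p-values describe only how these libraries vary, and that variation may be technical.

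Notch receptors sit in the membrane of one cell and are engaged by Jagged or Delta-like ligands on a neighbouring cell. Fringe enzymes add sugars to the receptor and change which ligand it answers. Once bound, the receptor is cut by ADAM proteases and then by gamma-secretase, and its freed intracellular part joins RBPJ and a Mastermind protein on DNA to switch on Hes and Hey genes. In the ovary the pathway is known for its part in follicle formation and growth, where NOTCH2 is a main receptor of granulosa cells and JAG1 a main ligand.

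The sequences just upstream of 4 members are shown first because these members carry the main results: Jag1, Dner and Lfng, which were higher after Foxl2 siRNA, and Hey2, which was lower after both siRNAs. They are from RefSeq (GRCm38.p6), run 5′ to 3′ along the strand of the gene, and stop before the first base of the gene in GENCODE M21. Capitals mark matches, on either strand, to TGGGAA or to the longer GTGGGAA that contains it, the letters bound by RBPJ. The Jag1 stretch is chr2:137116645-137116770 on the minus strand, the Dner stretch chr1:84696222-84696471 on the minus strand, the Lfng stretch chr5:140607091-140607319 on the plus strand, and the Hey2 stretch chr10:30842802-30843033 on the minus strand.
Jag1: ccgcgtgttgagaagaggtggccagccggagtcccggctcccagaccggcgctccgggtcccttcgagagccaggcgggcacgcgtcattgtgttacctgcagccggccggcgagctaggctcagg
Dner: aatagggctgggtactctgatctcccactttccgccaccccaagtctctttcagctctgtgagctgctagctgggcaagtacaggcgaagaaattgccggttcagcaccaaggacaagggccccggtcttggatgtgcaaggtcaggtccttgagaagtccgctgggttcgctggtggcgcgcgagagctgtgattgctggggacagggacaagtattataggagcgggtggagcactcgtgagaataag
Lfng: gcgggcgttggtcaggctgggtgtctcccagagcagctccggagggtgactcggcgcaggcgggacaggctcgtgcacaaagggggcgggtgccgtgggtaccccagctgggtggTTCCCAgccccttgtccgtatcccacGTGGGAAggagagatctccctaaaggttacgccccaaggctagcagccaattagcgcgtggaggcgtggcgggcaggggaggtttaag
Hey2: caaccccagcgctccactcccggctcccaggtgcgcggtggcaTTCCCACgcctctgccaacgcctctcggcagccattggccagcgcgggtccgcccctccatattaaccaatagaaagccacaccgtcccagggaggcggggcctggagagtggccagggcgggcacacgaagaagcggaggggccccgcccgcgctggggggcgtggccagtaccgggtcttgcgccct
The Lfng stretch held TGGGAA at position -108 from the RefSeq start, inside GTGGGAA at -109, and again on the other strand at -135. The Hey2 stretch held GTGGGAA on the other strand at -207. The Jag1 and Dner stretches held neither, and none of the 4 held the forkhead letters TGTTTAC or GTCAAGG, or GGTCA and TGACC spaced by 3 bases, the oestrogen receptor's site. Over the 250 bases upstream of each start, 29 members had an entry, 9 of them with TGGGAA, 4 with GTGGGAA, 3 with TGTTTAC and 0 with either of the other motifs. These members had 37 windows, and a member counts if any of its windows held the motif, so the counts and the shares per window below are not alike. Of all 32851 windows of that length, 21.6% held TGGGAA, 5.42% GTGGGAA, 3.17% TGTTTAC, 2.75% GTCAAGG and 0.0639% the spaced pair. A match is a run of letters and not evidence of binding.

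Libraries held 45 M to 59.6 M counts on genes, with a median of 52.4 M. Levels are given as CPM, counts scaled to a common library size by TMM, a correction for library composition. The limit that a count of 0 allows was 3 counts, or 0.0497 to 0.0662 CPM; this limit and the intervals given for low counts cover counting error only. Differences were tested in 1 edgeR fit of all libraries and 14907 genes, with a call at a Benjamini-Hochberg adjusted p under 0.05. Of the 36 members 33 passed the expression filter, and Dll1, Dll4 and Mfng were not tested.

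The targeted genes were measured first. Foxl2 stood at 174, 152 and 143 CPM in the scrambled libraries at 30 h and 189, 154 and 166 CPM at 54 h. Its level in the Foxl2 siRNA libraries was 33.8, 28.4 and 65.4 CPM at 30 h and 33.7, 57.5 and 25.2 CPM at 54 h, a fall of 3.68-fold (edgeR adjusted p = 0.00164) and 4.36-fold (adjusted p = 0.000191). The third library at 30 h and the second at 54 h kept the most Foxl2. Esr2 stood at 12.9 to 14.5 CPM after Esr2 siRNA against 60.4 to 61.6 CPM in scrambled cells, 4.43-fold lower (edgeR adjusted p = 0.00375). Esr2 was also lower after Foxl2 siRNA at 54 h (15.7 to 49.3 CPM against 64.9 to 74.2, 2.48-fold, edgeR adjusted p = 0.00854), so the Foxl2 siRNA cells at 54 h had less of both transcripts. At 30 h Esr2 stood at 29.2, 25 and 45.5 CPM after Foxl2 siRNA, below every scrambled library but not past the threshold (1.83-fold, edgeR adjusted p = 0.109). In the Esr2 siRNA libraries the level of Foxl2 was 112, 128 and 114 CPM, also below every scrambled library and not past the threshold (1.33-fold, edgeR adjusted p = 0.539). Because 2 of the 6 Foxl2 siRNA libraries kept more of the target, counts are also given without them, a choice made after the data were seen.

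In scrambled cells at 30 h 3 of the 4 gamma-secretase subunits were the most abundant members per length of exon. Levels, as CPM per kilobase, were 40.8 ± 1.28 (SD, n = 3) for Aph1a, 33 for Ncstn, the subunit that holds the substrate, and 26.6 for Psenen; Psen2, one of the alternative catalytic subunits, was lower at 11. Among receptors, Notch2 led with 17, against 1.17 for Notch3, 1.06 for Notch1 and 0.225 for Notch4. Jag1 led the ligands with 9.32, while Jag2 stood at 0.206 and Dll3, Dll4 and Dll1 at 0.0356, 0.0282 and 0.00788. Dll4 ran from 0.00496 to 0.074 across libraries and overlapped both other Delta-like genes, so its place among them cannot be told. Among fringe genes Rfng stood at 9.65, Lfng at 4.04 and Mfng at 0.0068. Among the members listed here as target genes the order was Hes6 (24.7), Hes1 (13.6), Hey2 (3.09), Heyl (1.66), Hey1 (0.139) and Nrarp (0.0211). The listing does not show that each of them answers to Notch in these cells. RBPJ, the DNA-binding partner of the receptor, stood at 9.73. The 6 members below Dtx1 in the order (Dlk1, Dll3, Dll4, Nrarp, Dll1 and Mfng) rested on few reads: Mfng had 1 count in each scrambled library at 30 h, and Dll1 had 0, 3 and 2.

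**Figure D1:**
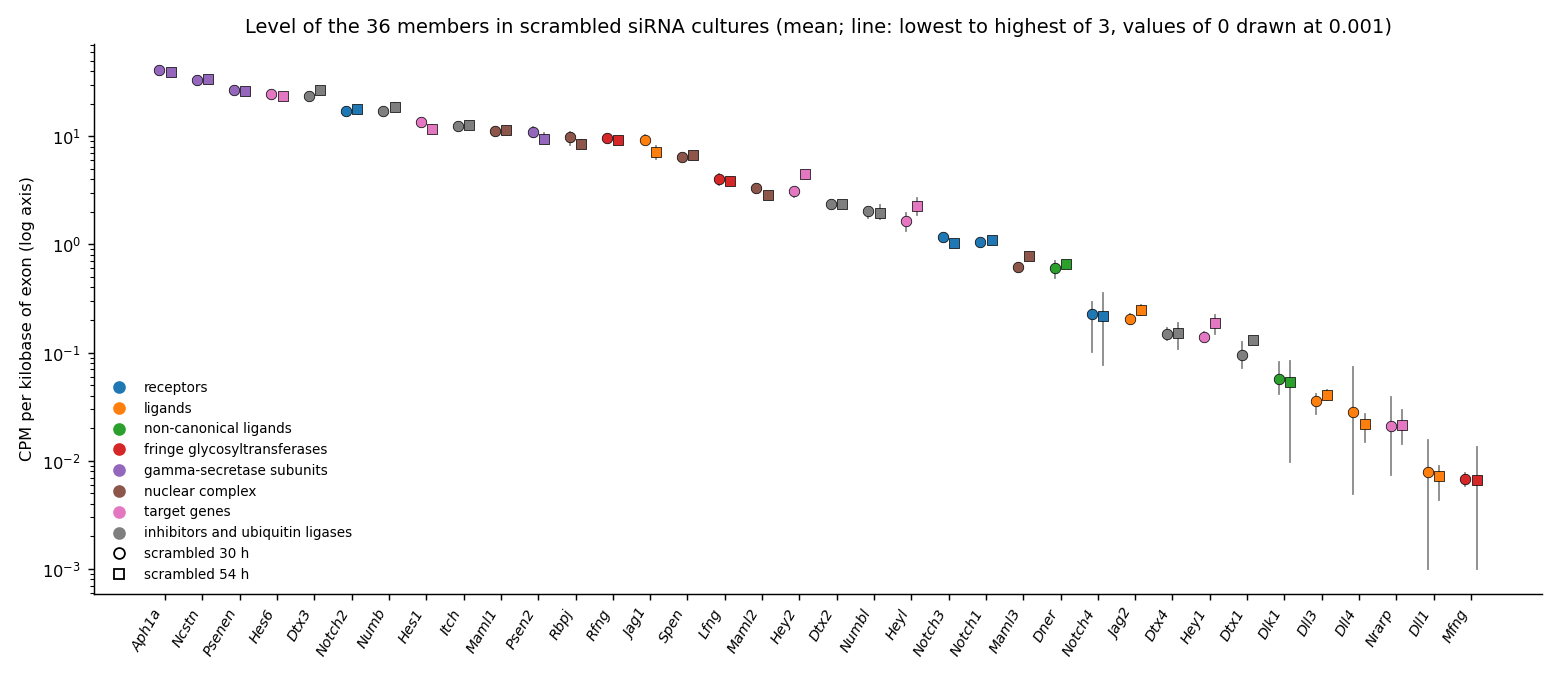
Level of each of the 36 members in scrambled siRNA cells at 30 h (circles) and 54 h (squares) on a log axis in CPM per kilobase of exon, with the range of 3 libraries as a line and the colour giving the role. Aph1a and Ncstn, both gamma-secretase subunits, stand at the top at both times, Psen2 lies lower, Notch2 leads the receptors and Jag1 the ligands, and the Delta-like ligands lie near the bottom.

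Foxl2 siRNA was followed by higher Lfng and Dner and lower Hey2 at 30 h, and by a wider set of changes at 54 h. At 30 h, 3 of 33 tested members were called (9.09%), 2 higher and 1 lower, where 13% of all tested genes were called (6.34% higher and 6.65% lower). At 54 h, 14 members were called (42.4%), 11 higher and 3 lower, where 38.8% of all tested genes were called (18.5% higher and 20.3% lower). The shares called in either direction lie near those of all genes and are no result about Notch genes as a group. By direction, 33.3% of the tested members were higher and 9.09% lower at 54 h, more higher and fewer lower calls than among all genes, a difference that was not tested. The median log2 change was 0.07 over the members and -0.009 over all genes at 30 h, and 0.12 and -0.011 at 54 h. The libraries of the groups did not overlap for 10 of the 33 at 30 h (33% of all tested genes) and for 19 at 54 h (51.4%). Over all 36 members, treated libraries lay wholly above the controls for 8 and wholly below for 3 at 30 h (15.3% and 17.7% of all tested genes), and for 15 and 5 at 54 h (23.5% and 27.9%). Without the 2 libraries that kept the most Foxl2, 9 members were called at 30 h and 17 at 54 h, where 30.4% and 48.4% of all genes were. Leaving out the third Foxl2 siRNA library alone gave 6 calls at 30 h, and leaving out the third scrambled library gave 9 at 54 h. Shares of all genes are not given for these fits, so the counts are no result about Notch genes.

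Of the canonical ligands, Jag1 was the one called after Foxl2 siRNA. Jag1 (chr2:137081456-137116644) stood at 51.1, 59.8 and 52.1 CPM in scrambled cells at 30 h, with 144, 143 and 60.6 CPM after Foxl2 siRNA. All 3 treated libraries lay above all 3 controls, but the third, with the most Foxl2, only just, and the 2.13-fold difference missed the threshold (log2 1.09 ± 0.36 SE, edgeR adjusted p = 0.0654). By 54 h Jag1 had risen from 36, 47.5 and 41.2 CPM to 253, 82.3 and 233 CPM, 4.56-fold (log2 2.19 ± 0.37, edgeR adjusted p = 0.000598). The second library, again the one with the most Foxl2, was the lowest of the treated libraries and still above every control. Without both of these libraries the Jag1 difference at 30 h was called, at log2 1.4 ± 0.1 (edgeR adjusted p = 4.37e-06). The library left out at 30 h was also the lowest in Jag1 of its group. Jag2, the other Jagged ligand, did not pass at either time (1.17 to 1.71 CPM against 1.27 to 1.57 at 30 h). At 54 h it stood at 1.28, 1.82 and 0.963 against 1.7, 1.56 and 1.94 CPM (log2 -0.35 ± 0.23, edgeR adjusted p = 0.253). Jag2 was called lower there without the second treated library, the highest in Jag2 (log2 -0.63, edgeR adjusted p = 0.0402). The voom alternative also called it lower (-0.67, adjusted p = 0.0176).

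The Delta-like ligands stayed near the counting limit. Dll1 counts were 0, 3 and 2 in scrambled cells at 30 h and 6, 4 and 0 after Foxl2 siRNA, then 1, 2 and 2 against 11, 5 and 5 at 54 h. The 54 h libraries did not overlap, and the ratio of summed counts was 4.43 with a 95% interval of 1.62 to 15, but the gene was too low to enter the fit. Dll4 and Dll3 had at most 17 and 10 counts in any scrambled or Foxl2 siRNA library, and their ratios at 54 h were 1.35 (0.637 to 2.94) and 0.776 (0.36 to 1.63). Both intervals include a ratio of 1, and only changes outside them could be told at this depth.

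Dner, a transmembrane protein reported as a non-canonical Notch ligand and known mostly from neurons, rose at both times. Dner (chr1:84369839-84696221) stood at 2.35, 3.33 and 2.95 CPM in scrambled cells at 30 h, with 8.76, 14.2 and 5.28 CPM after Foxl2 siRNA, 3.27-fold higher (log2 1.71 ± 0.37, edgeR adjusted p = 0.00945). The later libraries went from 3.17 CPM in each scrambled library to 16.1, 9.37 and 23.9 CPM, 5.18-fold (log2 2.37 ± 0.37, edgeR adjusted p = 0.000335). The groups did not overlap at either time, and both calls held under all 15 alternatives. Dlk1, a secreted and membrane-bound relative of Delta that lacks the receptor-binding domain, had 3 to 25 counts in these libraries and did not pass.

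Of the receptors, Notch1 and Notch3 rose at 54 h while the abundant Notch2 did not pass. Notch1 (chr2:26457903-26516663) stood at 13.9, 15.9 and 15.2 CPM in scrambled cells at 30 h and 26.8, 25.8 and 17 CPM after Foxl2 siRNA, a 1.54-fold difference just short of the threshold (edgeR adjusted p = 0.0527), and called without the third treated library (log2 0.81, adjusted p = 0.0108). By 54 h the level went from 16.1, 15.6 and 15.2 to 45.8, 26.9 and 31.2 CPM, 2.21-fold (log2 1.15 ± 0.20, edgeR adjusted p = 0.000621). The treated libraries lay above the controls at both times. Notch3 went from 8.26, 8.57 and 8.06 to 12.9, 15.4 and 9.67 CPM at 54 h, 1.52-fold (edgeR adjusted p = 0.0111), again with no overlap. Notch3 is also a receptor of pericytes and smooth muscle. Their 10 marker genes summed to 511 to 1390 CPM in the scrambled and 818 to 1710 CPM in the Foxl2 siRNA libraries at 54 h. Of these, 0 of 9 tested were called, where 38.8% of all genes were, and their part in the result was not tested. Notch2 stood at 190, 200 and 193 CPM in scrambled cells at 54 h, with 153, 150 and 189 CPM after Foxl2 siRNA. It was lower in every treated library but not past the threshold (log2 -0.24 ± 0.12, edgeR adjusted p = 0.137). Without the third treated library, the highest one, Notch2 was called lower (log2 -0.36, edgeR adjusted p = 0.0468). Notch4, mainly an endothelial receptor, varied from 0.623 to 3.68 CPM over these libraries and did not pass, and 12 endothelial markers summed to 4.01 to 18.1 CPM over all libraries. At 54 h these markers summed to 5.29 to 12.2 CPM in scrambled and 7.68 to 18.1 CPM in Foxl2 siRNA libraries. Of the 7 tested, 1 was called higher there, where 18.5% of all genes were.

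Lfng gave the smallest adjusted p of any member at both times. The lunatic fringe enzyme favours Delta-like over Jagged ligands, and mice without it are known to have disturbed follicles. Lfng (chr5:140607320-140615545) stood at 11.3, 8.84 and 10.3 CPM in scrambled cells at 30 h, with 32, 24.6 and 19.9 CPM after Foxl2 siRNA, 2.51-fold (log2 1.33 ± 0.20, edgeR adjusted p = 0.00102). By 54 h the level rose from 9.32, 9.69 and 10.1 to 48.3, 32.3 and 43.5 CPM, 4.26-fold (log2 2.09 ± 0.20, edgeR adjusted p = 1.04e-05). Even the lowest treated library lay well above the highest control, and both calls held under all 15 alternatives. Rfng, the radical fringe, did not pass at 54 h (20.8 to 22.3 CPM against 21.9 to 23.4), and Mfng counts stayed between 0 and 4, with 1 in each scrambled library and 0 in each Foxl2 siRNA and Esr2 siRNA library at 30 h.

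**Figure D2:**
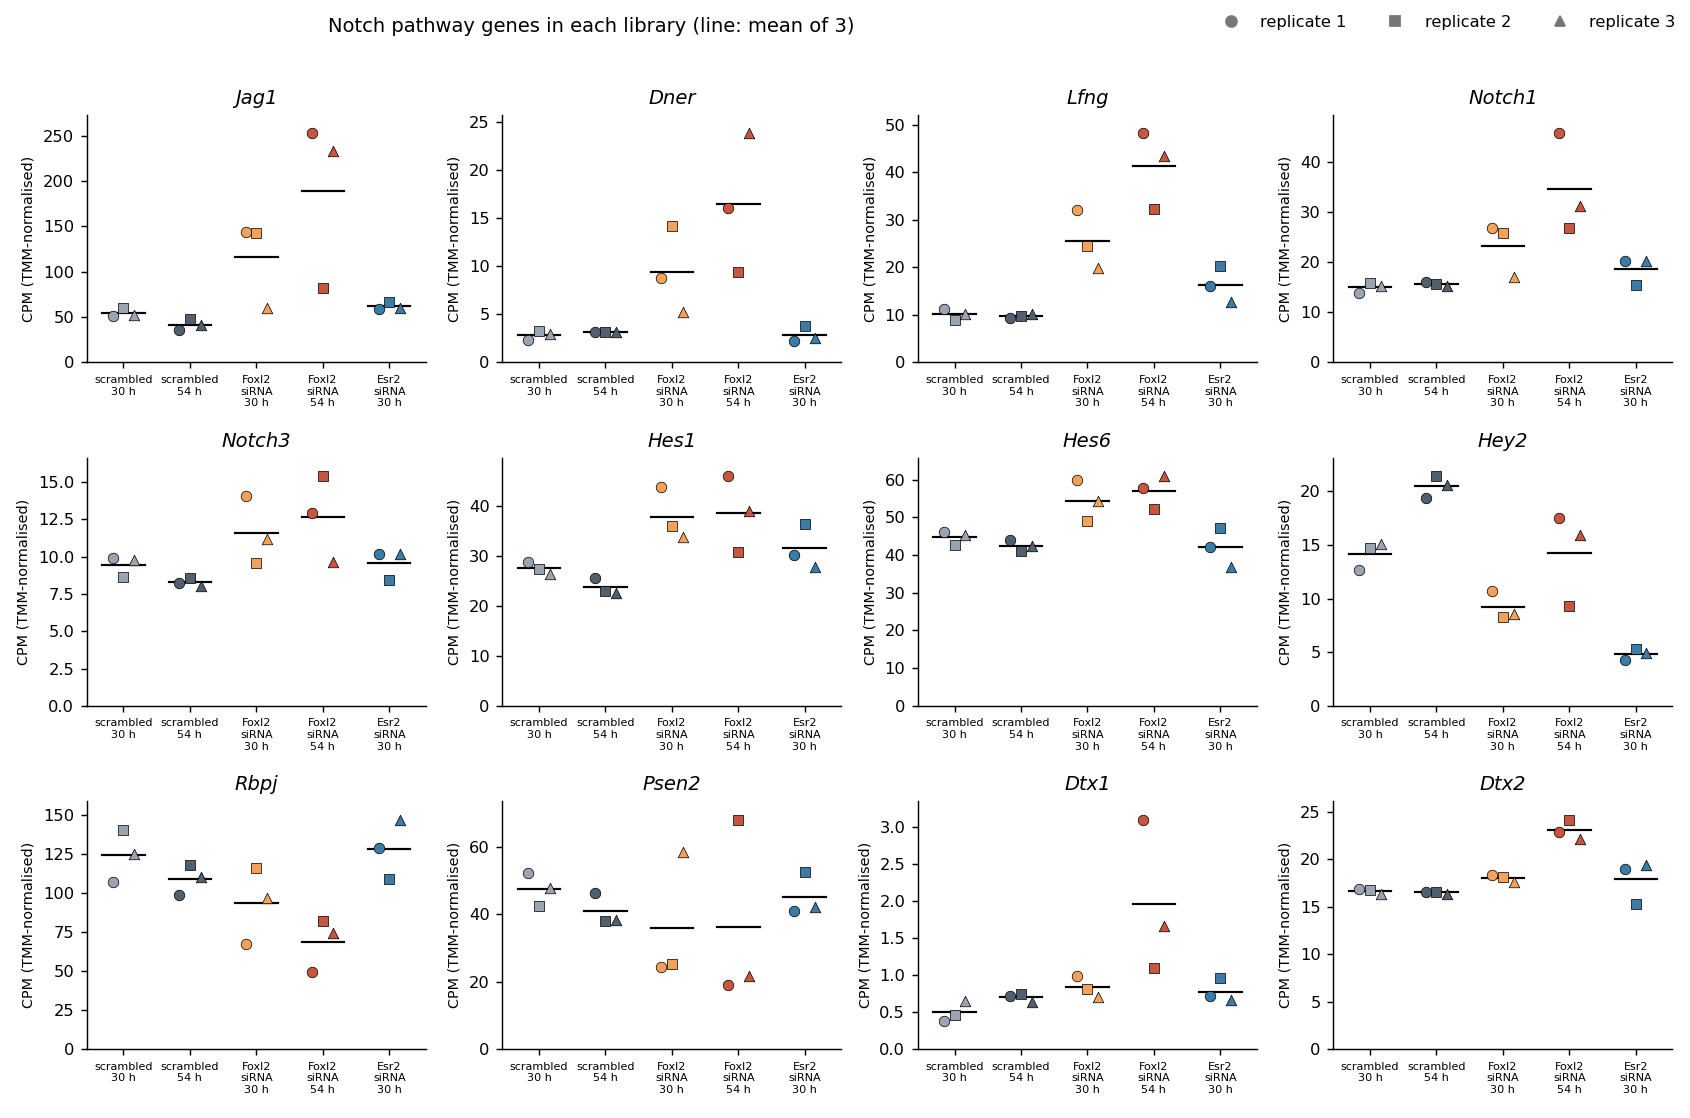
TMM-normalised CPM of 12 members in each of the 15 libraries, with the group mean as a line and the replicate number as the marker shape, each panel on its own scale from 0. Jag1, Dner, Lfng and Notch1 stand higher after Foxl2 siRNA, Hey2 is lowest after Esr2 siRNA, and Psen2 splits the Foxl2 siRNA libraries.

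The gamma-secretase subunits moved little, apart from a split in Psen2. Ncstn fell 1.11-fold at 54 h, from 130, 134 and 137 to 113, 123 and 126 CPM (log2 -0.15 ± 0.05, edgeR adjusted p = 0.0297), a small difference that lost its call under 7 of 15 alternatives, among them leaving out any scrambled library or treated library 1 (adjusted p up to 0.132). Ncstn shares 4.91% of its exon bases with Copa on the other strand, and the strand setting of the counting is not given in the sources used here. At 30 h Ncstn stood at 125, 126 and 126 against 130, 129 and 135 CPM, below every control but not past the threshold (edgeR adjusted p = 0.429). Aph1a and Psenen did not pass at either time, though at 54 h their libraries did not overlap. Aph1a stood at 131, 129 and 127 against 137, 136 and 132 CPM, and Psenen at 36.4, 37.7 and 35.7 against 32.6, 34.2 and 33.9 CPM (edgeR adjusted p = 0.402 and 0.146). The 2 genes also overlap others: Aph1a shares 12.9% of its exon bases with Car14 and Psenen 9.33% with U2af1l4, both on the other strand. Psen2 stood at 52.3, 42.4 and 47.8 CPM in scrambled cells at 30 h and 46.2, 38 and 38.3 CPM at 54 h. After Foxl2 siRNA it stood at 24.2, 25.1 and 58.5 CPM at 30 h and at 19, 68 and 21.5 CPM at 54 h. The 2 high values came from the 2 libraries that kept the most Foxl2, and both lay above every scrambled library, 68 CPM being the highest of all 15. In the whole groups Psen2 did not pass (edgeR adjusted p = 0.588 and 0.781). Without those 2 libraries, a choice made after the data were seen, the Psen2 change was log2 -0.95 ± 0.13 at 30 h and -1.01 ± 0.13 at 54 h. The libraries left out were the 2 with high Psen2, so their removal fixed this outcome and it is no test.

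**Figure D3:**
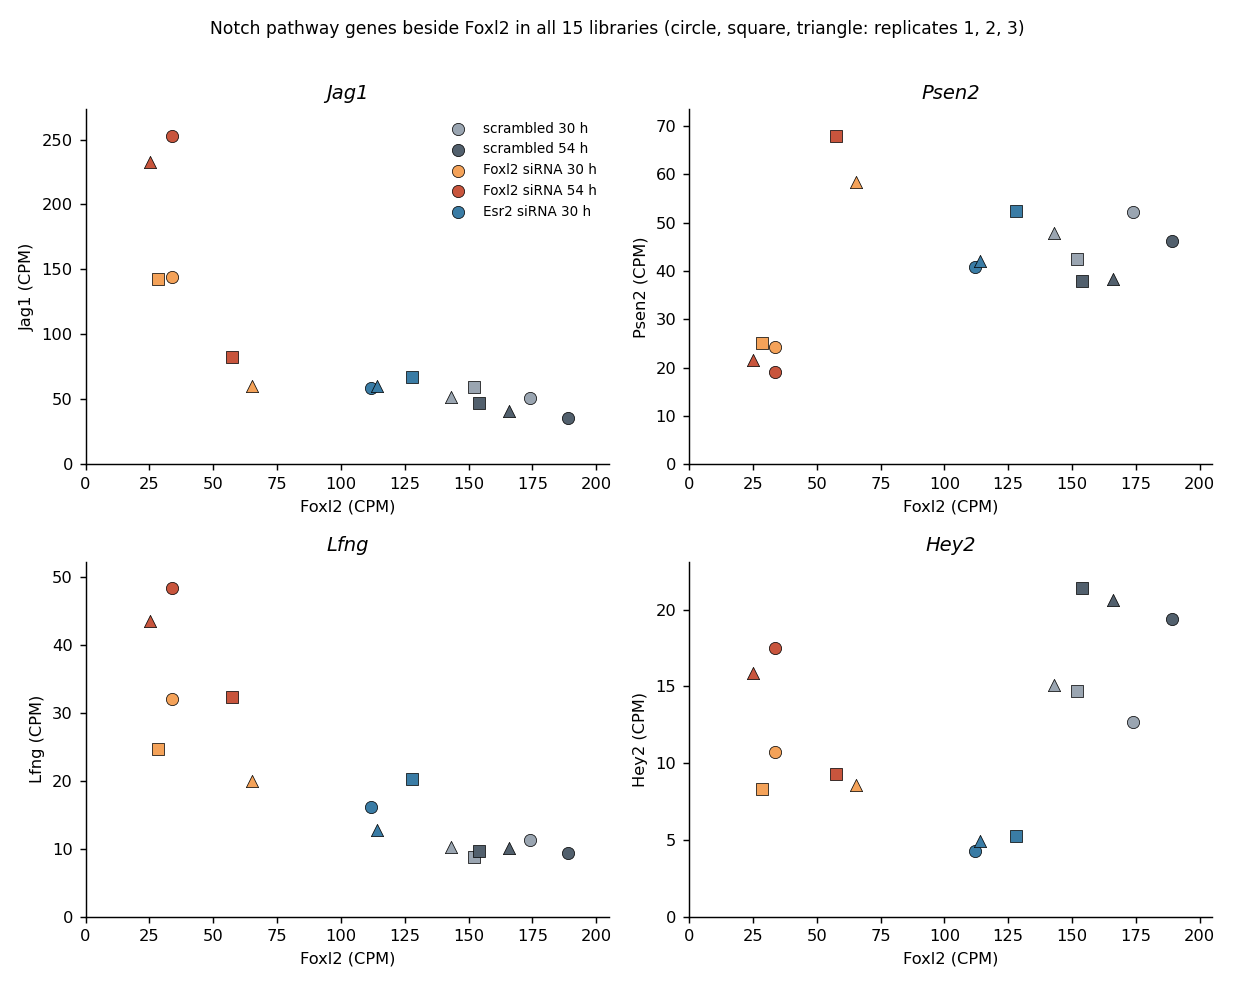
CPM of Jag1, Psen2, Lfng and Hey2 against CPM of Foxl2 in all 15 libraries, coloured by group, with the replicate number as the marker shape. The Foxl2 siRNA libraries with 57.5 and 65.4 CPM of Foxl2 have the 2 highest Psen2 values, 68 and 58.5 CPM, and the lowest Jag1 of their groups.

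In the nuclear complex, Rbpj fell and Maml3 rose at 54 h. Rbpj (chr5:53466152-53657362) went from 98.6, 118 and 110 to 49.6, 81.9 and 74.2 CPM, 1.59-fold lower with no overlap (log2 -0.67 ± 0.20, edgeR adjusted p = 0.0209). This call was lost in 3 of 15 alternatives, without scrambled library 2 or 3 or treated library 1, where adjusted p reached 0.0867. At 30 h it was 107, 140 and 125 against 67.6, 116 and 96.8 CPM and did not pass. Maml3, 1 of the Mastermind co-activators, went from 8.7, 7.89 and 8.01 to 11.1, 12 and 8.44 CPM at 54 h (1.28-fold, edgeR adjusted p = 0.0361), with 1 treated library inside the control range and the call lost under 8 of 15 alternatives, among them leaving out any scrambled library or treated library 1 or 2 (adjusted p up to 0.121). Maml2 (25.6, 19.9 and 26 against 19.5, 18.9 and 18.3 CPM at 54 h, adjusted p = 0.0665) and Maml1 did not pass. Neither did Spen, a co-repressor that binds RBPJ, at 111, 107 and 101 against 96.5, 95.3 and 94.3 CPM at 54 h, above every control (edgeR adjusted p = 0.365). Maml2 was called at 54 h without the second treated library, the lowest in Maml2 of its group (log2 0.45, adjusted p = 0.014). Spen stood at 105, 124 and 77 against 84.6, 96.5 and 91.4 CPM at 30 h and did not pass (edgeR adjusted p = 0.434). It was called there without the third treated library (log2 0.33, adjusted p = 0.0209). The library left out was below every control, so this call rests on its removal.

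The members listed as target genes split. Hes1, the classical Notch target and a transcriptional repressor, was higher at 54 h, at 46, 30.8 and 39.1 CPM against 25.6, 23 and 22.6, 1.63-fold (log2 0.70 ± 0.14, edgeR adjusted p = 0.00185). The earlier values were 43.8, 36 and 33.8 against 28.9, 27.5 and 26.5 CPM at 30 h, with no overlap and an edgeR adjusted p of 0.0515, or 0.0323 without the third treated library. Hes6, a relative that is known to oppose HES1, rose 1.34-fold at 54 h, from 44, 41 and 42.5 to 57.7, 52.1 and 60.9 CPM (edgeR adjusted p = 0.00355). Its 30 h libraries, 59.9, 48.9 and 54.2 against 46, 42.7 and 45.4 CPM, did not overlap and missed the threshold (edgeR adjusted p = 0.0662), which they passed without the second treated library (0.0481). Nrarp, a feedback inhibitor that binds the Notch intracellular part, had 2, 4 and 3 counts in scrambled cells and 11, 7 and 19 after Foxl2 siRNA at 54 h. The ratio of summed counts was 4.33 (95% interval 2.05 to 10.2), and the edgeR adjusted p was 0.0184, lost when scrambled library 1 or 3 or treated library 3 was left out, where it reached 0.0872. Gm38287 on the other strand, not in the count table, covers 79.4% of the exon bases of Nrarp, so without the strand setting the source of these few reads is uncertain.

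Hey2 went the other way. Hey2 (chr10:30832359-30842801), a Hey-family repressor, stood at 12.7, 14.7 and 15.1 CPM in scrambled cells at 30 h and at 10.7, 8.3 and 8.6 CPM in the Foxl2 siRNA libraries, 1.54-fold lower (log2 -0.63 ± 0.19, edgeR adjusted p = 0.0449). The values at 54 h were 19.4, 21.4 and 20.6 against 17.5, 9.3 and 15.9 CPM, 1.44-fold lower (log2 -0.53 ± 0.19, edgeR adjusted p = 0.0388). No treated library reached its controls, but the margin was small: the call was lost under 9 of 15 alternatives at 30 h, among them leaving out any library (adjusted p up to 0.152), and 6 of 15 at 54 h, among them any scrambled library or treated library 2 (up to 0.136). At 54 h the second library, with the most Foxl2, was the lowest; the difference was log2 -0.29 without it (adjusted p = 0.0759) and -0.3 without both such libraries (adjusted p = 0.0673). Heyl stood at 5.31 to 6.89 against 6.86 to 9.97 CPM at 30 h and 5.19 to 11.7 against 9.49 to 13.9 CPM at 54 h, and neither difference passed. At 54 h Heyl was called without the third treated library, the highest at 11.7 CPM (log2 -0.84, adjusted p = 0.0278), against -0.50 with it, and with the replicate block (adjusted p = 0.0337). Hey1 stood at 0.413 to 0.435 against 0.419 to 0.507 CPM at 30 h and at 0.88, 0.421 and 1 against 0.623, 0.721 and 0.484 CPM at 54 h, and did not pass (edgeR adjusted p = 0.381). Without the second treated library, with the most Foxl2, Hey1 was called at 54 h, at log2 0.63 (adjusted p = 0.0261) against 0.33 with it.

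Of the inhibitors and ubiquitin ligases, 2 Deltex genes rose at 54 h and none of the 7 passed in edgeR at 30 h. Deltex proteins are E3 ligases that act on the Notch receptor, and Dtx1 is itself known as a Notch-responsive gene. Dtx1 went from 0.714, 0.74 and 0.64 to 3.1, 1.1 and 1.66 CPM at 54 h, 2.78-fold (log2 1.47 ± 0.33, edgeR adjusted p = 0.00372), and the change was log2 0.97 without the first treated library (adjusted p = 0.0163), the highest of the 3. At 30 h it stood at 0.989, 0.81 and 0.709 against 0.382, 0.463 and 0.654 CPM, above every control but not past the threshold (edgeR adjusted p = 0.194). Dtx2 was tight: 16.6, 16.6 and 16.4 CPM in scrambled cells and 22.9, 24.2 and 22.1 CPM after Foxl2 siRNA at 54 h, 1.39-fold (log2 0.48 ± 0.08, edgeR adjusted p = 0.000554). At 30 h the gap was small, 18.4, 18.1 and 17.6 against 16.9, 16.8 and 16.3 CPM, again with no overlap (edgeR adjusted p = 0.393). Numb and Numbl, which antagonise the receptor, the ligase Itch, Dtx3 and Dtx4 did not pass at either time; Itch stood at 141, 129 and 131 against 124, 122 and 125 CPM at 54 h, above every control (adjusted p = 0.0939).

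**Figure D4:**
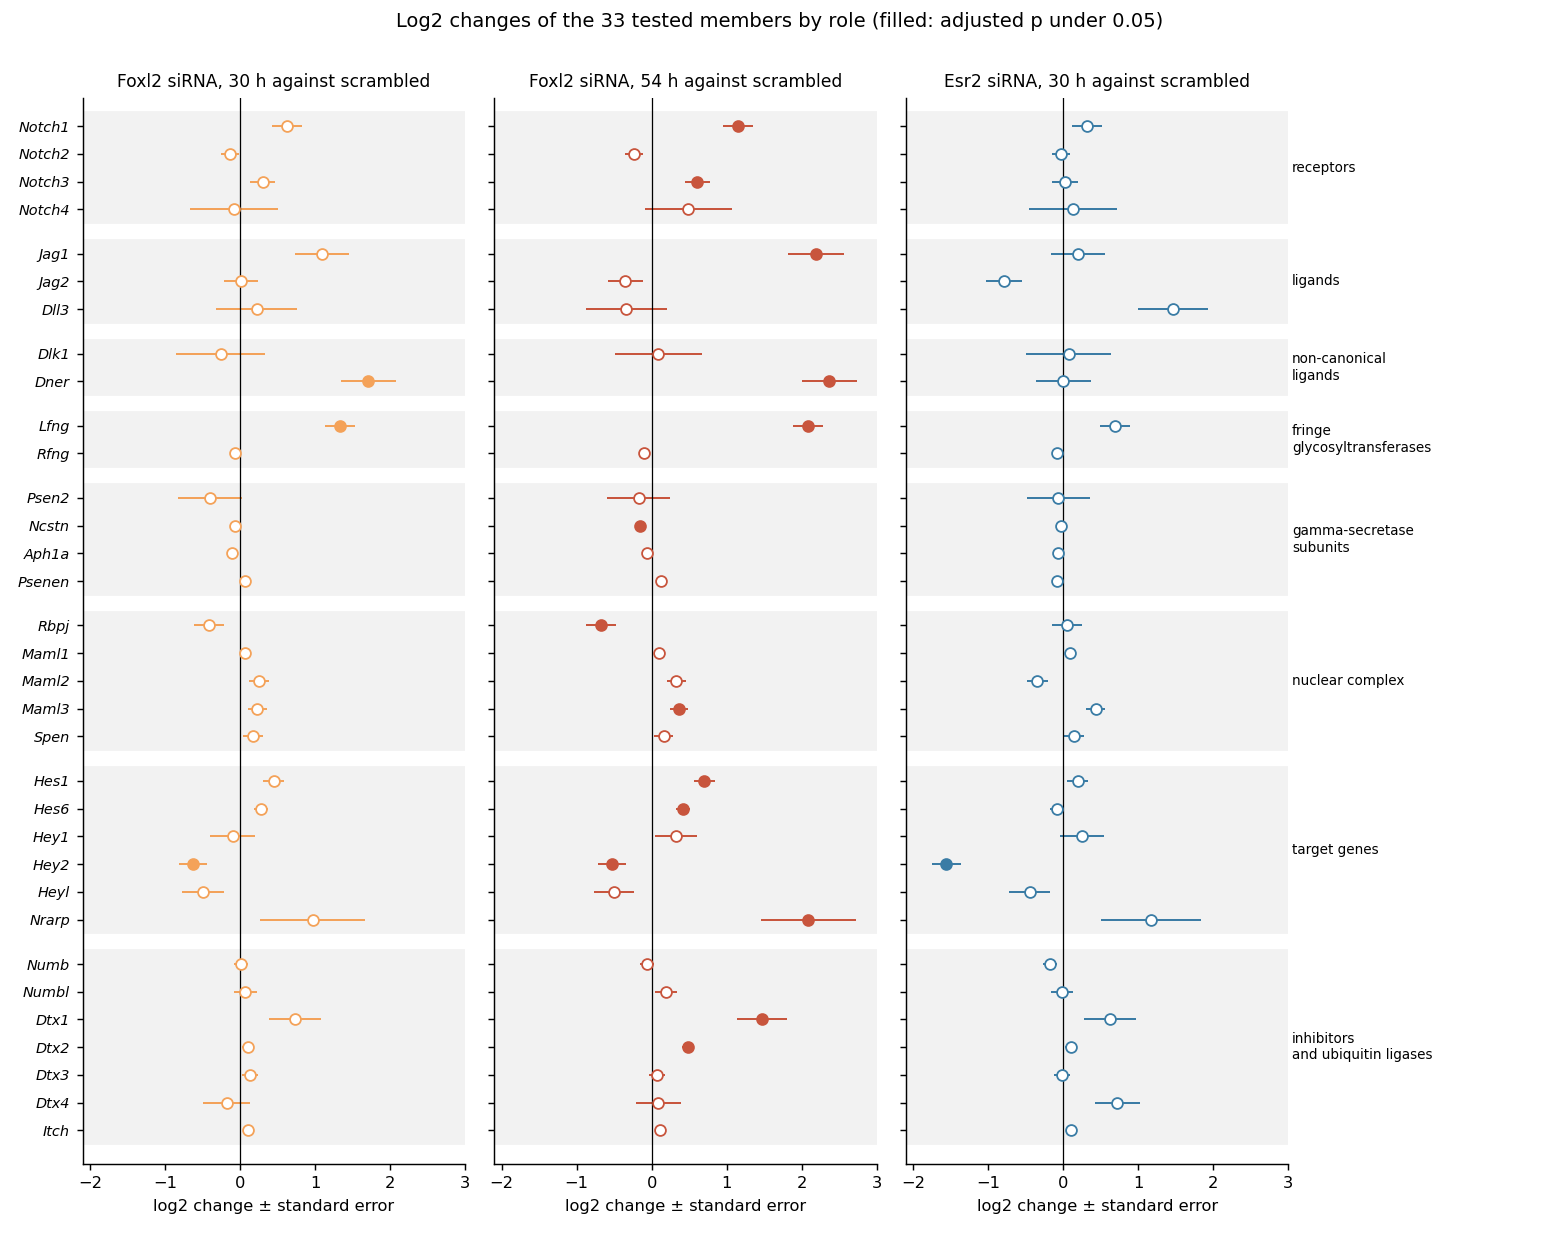
Log2 change ± standard error of the 33 tested members, grouped by role, for Foxl2 siRNA at 30 h, Foxl2 siRNA at 54 h and Esr2 siRNA at 30 h, each against scrambled cells of the same time, with filled points for an edgeR adjusted p under 0.05. There are 3, 14 and 1 filled points, and Dner, Jag1, Lfng and the sparsely counted Nrarp lie farthest to the right at 54 h.

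Several members stood farther from their controls at 54 h than at 30 h, but the difference between the 2 changes did not pass in edgeR for any of the 33, where 0.00671% of all genes did; DESeq2 also called 0 (1.49% of all genes) and voom called 2, Jag1 and Dtx2 (7.08%). Jag1 had a difference of log2 1.1 ± 0.51 (edgeR adjusted p = 0.493), Lfng of 0.76 ± 0.28 (adjusted p = 0.379) and Dtx2 of 0.37 ± 0.11 (adjusted p = 0.289). Jag1 alone was called without the second Foxl2 siRNA library at 54 h (log2 1.46, adjusted p = 0.0357), and without both libraries that kept the most Foxl2 (1.15 ± 0.15, adjusted p = 0.00274), where 5.55% of all genes were called. The 54 h library left out was the lowest in Jag1 of its group (82.3 CPM, with 253 and 233 in the others). Its removal widened the 54 h change, so these calls are no independent test. Leaving out both was a choice made after the data were seen.

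After Esr2 siRNA at 30 h, Hey2 was the only member called, against 4.23% of all genes (1.13% higher and 3.11% lower). It fell to 4.26, 5.26 and 4.95 CPM from 12.7, 14.7 and 15.1 CPM, 2.94-fold (log2 -1.56 ± 0.19, edgeR adjusted p = 0.000511), and the call held under all 14 alternatives. DESeq2 called 3 members, where it called 7.57% of all genes. Libraries did not overlap for 8 of the 33 (29.5% of all tested genes), and over all 36 the treated libraries lay above for 5 and below for 4 (14.2% and 15.2%). For Hey2 the highest Esr2 siRNA library lay far below the lowest control. Lfng stood at 16.1, 20.2 and 12.8 CPM, above every control library, and missed the threshold (1.61-fold, edgeR adjusted p = 0.0744). Jag2 was lower in all 3 libraries, at 0.696, 1.02 and 0.78 CPM against 1.57, 1.46 and 1.27 (adjusted p = 0.091), and Maml3 was higher in all 3, at 8.46, 9.37 and 8.47 CPM against 6.21, 7.06 and 6.29 (adjusted p = 0.0785). Dll3 counts were 13, 15 and 20 against 4, 5 and 7, a ratio of 2.79 (95% interval 1.56 to 5.26), with an edgeR adjusted p of 0.112. Jag1 stood at 59, 67 and 60.6 CPM and Dner at 2.24, 3.85 and 2.53 CPM, both overlapping their controls (adjusted p = 0.855 and 0.997). Of the remaining members whose libraries did not overlap, Maml2 was lower, at 14.5, 20.3 and 16.8 against 22.9, 20.8 and 21.9 CPM (edgeR adjusted p = 0.193). Itch was higher, at 128, 130 and 132 against 116, 127 and 120 CPM, and Dtx1 at 0.712, 0.958 and 0.658 against 0.382, 0.463 and 0.654 CPM (edgeR adjusted p = 0.311 and 0.4), the last by a narrow margin.

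The 2 knockdowns were then compared directly at 30 h, where 6 members were higher after Foxl2 siRNA than after Esr2 siRNA and 0 lower, 18.2% of those tested against 20.4% of all genes (11.1% higher and 9.34% lower). Hey2 was 1.91-fold higher after Foxl2 siRNA (log2 0.93 ± 0.19, edgeR adjusted p = 0.00455), so its fall was larger after Esr2 siRNA. Dner was 3.28-fold higher (edgeR adjusted p = 0.00571), with 5.28 CPM in the lowest Foxl2 siRNA library and 3.85 CPM in the highest Esr2 siRNA library. Maml2 stood at 26.3, 29.8 and 22.1 against 14.5, 20.3 and 16.8 CPM, 1.52-fold (edgeR adjusted p = 0.0073), with scrambled cells between at 20.8 to 22.9 CPM. Hes6 (1.29-fold, adjusted p = 0.0141), Jag2 (1.74-fold, adjusted p = 0.0332) and Lfng (1.56-fold, adjusted p = 0.0353) were also higher, the last with 1 Foxl2 siRNA library inside the Esr2 siRNA range. The libraries did not overlap for 9 of the 33 (34.8% of all tested genes), with Foxl2 siRNA above for 6 of the 36 and below for 4 (16.9% and 17.9%). Without both libraries that kept the most Foxl2, 11 were called, where 34.1% of all genes were. Jag1 (log2 1.2 ± 0.1, edgeR adjusted p = 1.23e-05) was higher, and Psen2 (-0.87 ± 0.13) and Dll3 (-1.8 ± 0.45, adjusted p = 0.00969) were lower. The Foxl2 siRNA library left out at 30 h had the lowest Jag1 and the highest Psen2 and Dll3 of its group. For Psen2 this removal fixed the outcome. Members with Foxl2 siRNA libraries wholly below the Esr2 siRNA libraries but not called were Dll3 (2, 6 and 10 against 13, 15 and 20 counts), Dtx4 (0.807, 0.77 and 0.492 against 1.42, 0.86 and 1.56 CPM, adjusted p = 0.0532), Maml3 (8.21, 7.88 and 6.83 against 8.46, 9.37 and 8.47 CPM) and Hey1 (0.424, 0.435 and 0.413 against 0.629, 0.469 and 0.52 CPM). Dll4, not tested, had 9, 5 and 4 against 2, 2 and 1 counts, a ratio of 4.04 (95% interval 1.44 to 13.9). Hes6, Jag2 and Lfng lost their calls without Foxl2 siRNA library 1, Esr2 siRNA library 1 or Esr2 siRNA library 3. Lfng also lost its call without Foxl2 siRNA library 2 and Jag2 without Foxl2 siRNA library 3.

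Between 30 h and 54 h with scrambled siRNA no member was called by edgeR (0.00671% of all genes). DESeq2 called 0 (0.42% of all genes) and voom 9 (18.1%). Libraries at 54 h lay above those at 30 h for 4 of the 36 and below for 5 (11.5% and 11.2% of all tested genes), 9 of the 33 tested (22.7%). Hey2 stood at 12.7, 14.7 and 15.1 CPM at 30 h and 19.4, 21.4 and 20.6 CPM at 54 h, with no overlap (log2 0.53 ± 0.19, edgeR adjusted p = 0.772). Jag1 stood at 51.1, 59.8 and 52.1 against 36, 47.5 and 41.2 CPM, and each replicate number was lower at 54 h. The other members without overlap differed by at most 1.26-fold: Notch2 (177, 189 and 186 CPM at 30 h and 190, 200 and 193 at 54 h), Maml3 (6.21, 7.06 and 6.29, then 8.7, 7.89 and 8.01) and Dtx3 (64.1, 58.4 and 59.2, then 67, 67.1 and 71.8) were higher at 54 h. Lower at 54 h were Notch3 (9.94, 8.67 and 9.77, then 8.26, 8.57 and 8.06), Maml2 (22.9, 20.8 and 21.9, then 19.5, 18.9 and 18.3), Hes1 (28.9, 27.5 and 26.5, then 25.6, 23 and 22.6) and Rfng (23.6, 24.6 and 23.9, then 21.9, 23.2 and 23.4). With the replicate number as a block and these 2 groups alone, 10 members were called, where 11% of all genes were: Hey2 (log2 0.53, adjusted p = 0.000457), Heyl (0.46, adjusted p = 0.00131), Maml3, Dtx3 and Numb higher, and Jag1 (-0.39, adjusted p = 0.000596), Rbpj, Psen2, Hes1 and Maml2 lower.

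The rest of the pathway was followed with a list of 70 other genes, of which 65 were tested. At 30 h after Foxl2 siRNA 3 rose and 7 fell (15.4%, with 13% of all genes called), at 54 h 13 rose and 11 fell (36.9%, with 38.8%), and after Esr2 siRNA 4 rose and 2 fell (9.23%, with 4.23%). Of the 8 genes for sugar addition to the receptor, 3 fell at 30 h, where 6.65% of all genes fell. At 54 h 5 fell and 1 rose, where 20.3% of all genes fell and 18.5% rose. Gxylt1, a xylosyltransferase, went from 123, 111 and 121 to 63, 94.8 and 54.5 CPM at 54 h (log2 -0.74, edgeR adjusted p = 0.0138), and its relative Gxylt2 from 45.6, 35.4 and 38.7 to 63.8, 88.1 and 58.6 CPM (0.81, adjusted p = 0.00277). Adam10, the protease that makes the first cut, went from 248, 245 and 245 to 318, 323 and 278 CPM at 30 h (log2 0.32, edgeR adjusted p = 0.0109). Tle1, a Groucho-type co-repressor recruited by Hes proteins, went from 70.3, 68.3 and 67.9 to 41.8, 42.7 and 37.3 CPM at 54 h (-0.76, edgeR adjusted p = 1.27e-05).

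Among other genes of this list, the ligand ubiquitin ligases Neurl1b and Neurl1a were called in opposite directions after Foxl2 siRNA at 54 h. Neurl1b went from 6.04, 6.18 and 5.12 to 1.32, 2.54 and 2.41 CPM (log2 -1.46, edgeR adjusted p = 0.000297). Neurl1a went from 6.46, 8.27 and 7.42 to 17.1, 7.36 and 16.7 CPM (0.89, edgeR adjusted p = 0.0248), with the second library, which kept the most Foxl2, inside the control range. Neurl1a was also higher after Esr2 siRNA, from 7.22, 8.98 and 7.44 to 20, 13.9 and 18.4 CPM (1.15, edgeR adjusted p = 0.0392). Bhlhe41, a repressor related to the Hes family, moved in opposite directions at 30 h: from 2.04, 2.07 and 2.03 CPM to 4.68, 6.16 and 3.96 after Foxl2 siRNA (log2 1.27, edgeR adjusted p = 0.000581) and to 1.04, 1.23 and 1.2 after Esr2 siRNA (-0.82, adjusted p = 0.0212). Its direct difference between the knockdowns was log2 2.09 (edgeR adjusted p = 9.49e-06). Ccnd1, a cyclin reported as a Notch target, went from 16.6, 29.9 and 24.6 to 86.7, 33.6 and 209 CPM at 54 h (2.21, edgeR adjusted p = 0.00603), the lowest in the library with the most Foxl2. That library was not always the nearest to the controls. For other genes, among them Notch3, Maml3, Dtx2, Hey2 and Gxylt2, it was the farthest from them of the Foxl2 siRNA libraries at 54 h. A relation to the level of Foxl2 was not tested. Furin, which cleaves the receptor on its way to the surface, rose after Esr2 siRNA, from 158, 146 and 153 to 213, 199 and 213 CPM (0.45, edgeR adjusted p = 0.000927).

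Markers of other cell types were read beside these results. The 11 granulosa markers summed to 5150 to 5230 CPM in scrambled cells at 54 h and 2970 to 4040 CPM after Foxl2 siRNA, where 5 of 11 fell and 1 rose (20.3% and 18.5% of all genes). Much of the fall in the sum was in Gja1, from a mean of 1660 to 191 CPM. Inha went from 1940 to 1750 CPM, while Amhr2 (138 to 227 CPM) and Inhbb (265 to 337 CPM) had higher means. At 30 h the sums were 4520 to 4910 and 3280 to 4490 CPM, with 4 lower and 1 higher (6.65% and 6.34%). After Esr2 siRNA at 30 h the sum was 3430 to 3580 CPM, also below every scrambled library, with 0 of 11 called (4.23% of all genes). The 9 surface epithelium markers measured summed to 300 to 381 CPM in scrambled cells and 724 to 742 CPM after Foxl2 siRNA at 54 h, where 6 of 9 rose and 0 fell (18.5% and 20.3% of all genes). At 30 h 3 of 9 rose, where 6.34% of all genes rose. The part of these markers in the changes of Notch genes was not tested. Leukocyte markers summed to 3.22 to 3.44 CPM in scrambled cells at 54 h and 4.68 to 6.03 CPM after Foxl2 siRNA, with 2 of 4 tested higher and 1 lower. Oocyte markers summed to 2.45 to 3.06 and 1.26 to 1.77 CPM in the same groups, with 1 of 2 tested lower. Theca and stroma markers summed to 124 to 150 and 121 to 173 CPM, with 1 of 6 tested lower. At 30 h 1 of 4 leukocyte markers was higher and none of the oocyte or theca and stroma markers was called. In such bulk samples a change in the number of cells of a type and a change in RNA per cell cannot be told apart.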

How the data were processed

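RNA-seq libraries of poly(A) RNA were sequenced as single 75-base reads. Each deposited file gives raw read counts per gene, in whole numbers, for 1 library. Tools in the submitters' processing notes are TopHat2, DESeq2 and bcl2fastq 2.15.0, with build mm10. How reads were assigned to genes, and whether strand was used, is not given in the sources used here. Rows of 92 ERCC spike-ins (0.105% to 0.352% of counts) were left out, and 15 symbols that a spreadsheet had turned into dates in scrambled library 1 at 30 h were restored. Lengths, coordinates and overlaps are from GENCODE M21 (GRCm38).

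The two-sided quasi-likelihood test of edgeR 4.0.16 (R 4.3.3) was run on these counts with TMM scaling, filterByExpr by group, 1 fit of 5 group means (10 residual degrees of freedom, common dispersion 0.022) and Benjamini-Hochberg adjustment over 14907 genes. The standard error is the log2 change divided by the square root of F. The script was tested on simulated data. Replicates of a group differed beyond sampling noise. Alternatives were RLE and upper-quartile scaling, DESeq2 1.42.0, no filter, a filter at 1 CPM in 3 libraries, limma 3.58.1 voom with quality weights, a fit of the groups compared alone, a replicate block and leaving out each library.

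The members, the lists of other genes and markers, the tests and the alternatives were chosen with earlier results of these data known. All members were described by role, those called or with non-overlapping libraries mostly by their values in every library; of the other pathway genes, up to 8 called in a contrast with a mean of at least 1 CPM and the largest change could be named. In the pair of scrambled groups, same-numbered libraries deviated together for numbers 1 and 2 (correlations of 0.63 and 0.49) and weakly for 3 (0.14). Library 3 at 30 h went more with library 2 at 54 h (0.34). The same numbers did not go together in general: 15 of 30 same-number pairs over all groups were above 0.1, from -0.49 to 0.66. Between the Foxl2 siRNA groups, library 1 at 30 h went with library 1 at 54 h (0.66). Library 3 at 30 h went with library 2 at 54 h (0.64), and 2 with 3 (0.54), while the same-number pairs 2 and 3 were at -0.26 and -0.29. The numbers are thus a doubtful block in the fit of all libraries. The genes called in a blocked fit are therefore listed for the scrambled groups, where number 3 is also a doubtful pair.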

Additional observations from a re-analysis of the deposited data

How the results depend on the processing

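Of the members with an unadjusted p under 0.05 in a contrast, none changed direction there under any alternative run. Shares in brackets are those of all tested genes called by the same method. None is given for fits without single libraries or for the replicate block in the fit of all libraries. Those counts are therefore no result about Notch genes. For Foxl2 siRNA at 30 h, with 3 members called, upper-quartile scaling gave 5 (13.4%), DESeq2 7 (17%), the stricter filter 5 (15%), voom 13 (35.2%) and leaving out both libraries with the most Foxl2 9 (30.4%); leaving out single libraries gave 2 to 6, with 6 without Foxl2 siRNA library 3. At 54 h the 14 calls ran from 9 (without scrambled library 3) to 16 when single libraries were left out, were 17 without both libraries with the most Foxl2 (48.4%), 19 under voom (51.4%) and 10 with only the groups compared (31.3%). For Esr2 siRNA the 1 call became 3 under DESeq2 (7.57%), 15 under voom (31.7%) and 3 with only the groups compared (7.84%), and 1 to 2 without single libraries (2 without Esr2 siRNA library 2). For scrambled cells over time the 0 calls became 9 under voom (18.1%), 1 with only the groups compared (1.43%) and 10 with the replicate block and only these groups (11%), and stayed at 0 without any single library. For the difference between the Foxl2 siRNA changes the 0 calls became 2 under voom (7.08%), 1 without both libraries with the most Foxl2 (5.55%), and 0 to 1 without single libraries. For Foxl2 against Esr2 siRNA the 6 calls became 13 under voom (36.5%), 2 with only the groups compared (11.3%) and 11 without both libraries (34.1%), and 3 to 8 without single libraries. The replicate block in the fit of all libraries gave 3, 15, 1, 0, 0 and 7 calls in the order of these contrasts. The cause was not tested. Members with few counts (Dll1, Dll3, Dll4, Dlk1, Mfng and Nrarp) could show only large changes.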
